A study of Arabidopsis thaliana with 6 samples.

Results

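The genes described here had their mRNA level at least halved in *sr45* seedlings and lowered to a lesser degree in the *sap18*-labelled libraries. They were chosen on the measured values. The mean level of both *sr45* libraries was at most 0.5 of the Col-0 mean, and the mean of both *sap18*-labelled libraries was above 0.5 and below 0.8 of it. Of the 454 genes in the deposited table, 135 met both conditions. Of these, 9 genes of hormone signalling, flowering, starch and cell wall metabolism (*SBE2.1*, *XTH25*, *SOC1*, *AOC1*, *AOC2*, *TIFY7*, *AGL24*, *VSP1* and *VSP2*) were left out by name, and 126 remained. These 126 are called the partly lowered genes. They are set beside 60 genes halved in both lines and 51 genes halved in *sr45* but at 0.8 of Col-0 or above in the *sap18*-labelled libraries.

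Levels were measured by RNA-seq in whole seedlings of *Arabidopsis thaliana*, with 2 libraries for each of 3 genotypes. After 48 h of stratification, the seedlings were grown for 11 days on MS plates at 22 °C, under days of 16 h light and nights of 8 h. The paper describes the *sap18* and *sr45* lines as single mutants, each with 1 T-DNA insertion allele (*sr45-1* for *sr45*). The Col-0 ecotype served as the wild type, and each genotype rests on 1 line. Whether the *sap18*-labelled libraries come from that *sap18* line is in doubt, as described below. Levels are given as cRPKM, a form of RPKM that counts the mappable positions of a gene as its length, which the authors equalised across libraries by quantile normalization.

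SAP18, SR45 and ACINUS are the subunits of the ASAP complex, which binds RNA near exon junctions. SR45, the plant counterpart of animal RNPS1, is a serine/arginine-rich protein that acts in constitutive and alternative splicing. SAP18 is also known as a subunit of histone deacetylase complexes, which act on transcription. Only mRNA level is described here.

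The labels were first checked on the targeted genes. *SR45* mRNA stood at 20.9 and 23.1 cRPKM in the *sap18*-labelled libraries, 5.39 and 4.98 cRPKM in *sr45*, and 23.1 and 19.4 cRPKM in Col-0. *SAP18* mRNA, however, was at 936 and 900.2 cRPKM in the *sap18*-labelled libraries, 75.6 and 94.3 cRPKM in *sr45*, and 76.6 and 83.7 cRPKM in Col-0, a mean 11.4-fold above Col-0 in the libraries whose label names a *sap18* mutant. The sample titles and genotype labels also name this pair *sap18sr45*, whereas their descriptions, the design text and the paper give *sap18*. The pair is therefore called the *sap18*-labelled libraries throughout, and every direction drawn from it carries this doubt. Transcripts of the organelle genes *COX2*, *NAD4L* and *PSBL* differed several-fold between the Col-0 libraries and between the *sr45* libraries, as for *PSBL* with 13.8 and 16.8 cRPKM in the *sap18*-labelled libraries, 20.8 and 108 cRPKM in *sr45*, and 125 and 28.1 cRPKM in Col-0, and the part of this in the values below was not tested. None of 11 root markers and none of 10 leaf markers is in the table, so the tissue was not checked against markers, and in whole seedlings fewer cells of a type and less RNA per cell cannot be told apart.

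The partly lowered genes formed a narrow band. Their ratio to Col-0 was 0.50 to 0.795 with a median of 0.615 in the *sap18*-labelled libraries, and 0.124 to 0.497 with a median of 0.444 in *sr45*. In the *sap18*-labelled libraries, 60 genes lay between 0.5 and 0.6, 35 between 0.6 and 0.7, and 31 between 0.7 and 0.8. In *sr45*, 4 genes were below 0.25, 30 between 0.25 and 0.4, and 92 between 0.4 and 0.5, so that most sat close to the upper bound of the choice. On the log2 scale the fall in the *sap18*-labelled libraries was 53.3% of that in *sr45* at the median, and ranged from 20.7% for *APY5* to 95.1% for *AT5G03830*. The bounds set these ranges, which are therefore a description.

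**Figure D1:**
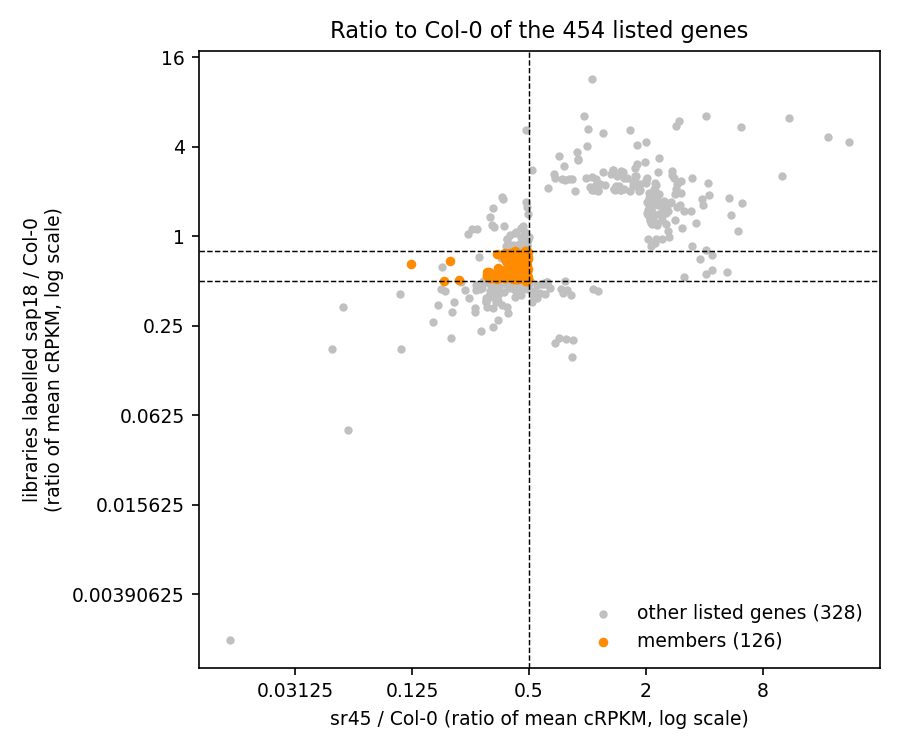
Each point is 1 of the 454 listed genes, with the *sr45* ratio to Col-0 on the x axis and the ratio of the *sap18*-labelled libraries on the y axis, both from mean cRPKM of 2 libraries and on log scales. Orange points are the 126 partly lowered genes, grey points are the other 328 (including the 9 left out by name), and dashed lines mark 0.5 and 0.8. The orange band lies left of 0.5 in *sr45*, with *APY5* farthest left at 0.124.

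The values at the edges show how thin the bounds are. Just above 0.5 in the *sap18*-labelled libraries were *AT5G03830* at 0.50, *AT2G15960* at 0.502 and *AT1G29600* at 0.502, and just outside were *GGPP6* at 0.4996, *AT1G60610* at 0.496 and *AT1G11930* at 0.494. Just below 0.8 were *FBA5* at 0.795, *AT5G22920* at 0.794 and *AT1G14200* at 0.789, against 0.804 for *AT1G06620*, 0.806 for *DUF6* and 0.807 for *CPX2* outside. In *sr45*, *AT3G54880* and *GPX2* at 0.497 and *BSK8* at 0.496 were the last inside, and the next listed genes in the same *sap18* window were far away, with *AT5G35480* at 3.15, *AT1G47395* at 3.78 and *ORG3* at 4.07. The table holds only genes from the lists of changed genes of the study, and levels between these values were not analysed here.

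Library by library, the median ratio to the Col-0 mean was 0.601 and 0.627 in the *sap18*-labelled libraries, 0.436 and 0.429 in *sr45*, and 0.987 and 1.01 in Col-0. Each of the 126 genes was below the Col-0 mean in all 4 libraries of the lines. In 116 of the 126 the 3 genotypes were fully ordered, with both *sr45* libraries below both *sap18*-labelled libraries and these below both Col-0 libraries, whereas 39.4% of the table showed this order. For 125 genes both *sap18*-labelled libraries were below both Col-0 libraries (56.2% of the table), for 126 both *sr45* libraries were below both Col-0 libraries (62.3%), and for 117 both *sr45* libraries were below both *sap18*-labelled libraries (63.2%). The choice of genes used all 3 contrasts, so nothing is read from these shares.

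The gene whose *sap18*-labelled libraries reached into the Col-0 range was *AT1G14200*, for a RING/U-box protein, at 7.98 and 13.8 cRPKM in the *sap18*-labelled libraries, 7.62 and 5.53 in *sr45* and 12 and 15.6 in Col-0. Of the 9 others without full order, *AT2G15960* overlapped between the lines with 216 and 196 cRPKM in the *sap18*-labelled libraries and 174 and 222 cRPKM in *sr45*, against 345 and 476 cRPKM in Col-0. The remaining 8 were *AT1G13390*, *AT5G18770*, *AT2G40960*, *AT4G13800*, *ITPK2*, *AT3G50845*, *AT5G03830* and *ITPK3*, each with *sr45* and the *sap18*-labelled libraries overlapping. Spread between the libraries of 1 genotype was largest in *sr45*. The higher library exceeded the lower by over 1.5 times for 3 genes in the *sap18*-labelled libraries, 17 in *sr45* and 3 in Col-0, with a maximum of 3.61-fold in *sr45* for *AT2G29170*, at 12.7 and 3.52 cRPKM.

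With limma on log2(cRPKM + 1), a linear model fitted to all 454 genes and 6 libraries, 97 of the 126 genes passed an adjusted p of 0.05 as lower in the *sap18*-labelled libraries than in Col-0, in a table of which 45.8% did, and all 126 passed as lower in *sr45*, in a table of which 61.0% did. Between the lines, 65 passed as higher in the *sap18*-labelled libraries than in *sr45* (44.3% of the table). By a fold criterion, with all 4 ratios between the 2 *sr45* and the 2 Col-0 libraries at least 2 and both Col-0 libraries above 5 cRPKM, 58 of the 126 were lower in *sr45* (30.2% of the table). It is modelled on the paper's rule of at least a 2-fold change between individual replicates, without the paper's limit on read counts. Why the table also holds the members that did not meet it was not tested. These counts describe the genes, as the same values chose them. The median log2 change was -0.66 in the *sap18*-labelled libraries and -1.08 in *sr45*, beside -0.38 and -0.96 over the whole table, with a median standard error of 0.17 per gene. With either *sap18*-labelled library left out, fewer of the 126 passed, both against Col-0 and between the lines. That group then rests on 1 library, and the counts over the whole table are not given, so nothing is read from this fall. The median log2 change in the *sap18*-labelled libraries was -0.62 without replicate 1 and -0.67 without replicate 2.

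The number of genes in the band depended on the scale of the libraries. When each library was scaled to the same median over the table, the *sr45* contrast moved by 0.55 and the *sap18* contrast by 0.20 on the log2 scale, and only 18 genes met the rule, 11 of them among the 126. With this scaling 98 of the 126 still passed as lower in *sr45* and 60 in the *sap18*-labelled libraries. As higher in the *sap18*-labelled libraries than in *sr45*, 11 passed. Over all 454 genes these counts were 209, 161 and 89, in the same order. The same values chose the 126, so a larger share of them than of the table as lower in each line was built in. Between the lines their share was below the table share after scaling and above it before, at 51.6% against 44.3%. Nothing is read from these shares. The fitted difference between the lines turned below 0 for 37 of the 126 after this scaling, while both lines stayed below Col-0 for all 126. Over the whole table, higher calls made up 41.9% of all calls in *sr45* after scaling, against 31.1% before, and 44.3% of the calls between the lines, against 75.8%. As the listed genes had been selected for change, an equal median over them is not a neutral reference.

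The 8 genes lowest in *sr45* were led by *APY5*, which encodes an apyrase of the GDA1/CD39 nucleoside phosphatase family. It was at 11.6 and 10.5 cRPKM in the *sap18*-labelled libraries, 1.70 and 2.51 cRPKM in *sr45* and 15.1 and 19 cRPKM in Col-0. The 3 genotypes did not overlap, and the *sr45* level was 8.09-fold below Col-0, with log2 changes of -0.57 (standard error 0.19) in the *sap18*-labelled libraries and -2.54 (standard error 0.19) in *sr45*.

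*AT2G30600*, for a BTB/POZ domain protein, had a similar shape at a higher level. Its values were 55.4 and 56.8 cRPKM in the *sap18*-labelled libraries, 15 and 17.3 cRPKM in *sr45* and 85 and 79.7 cRPKM in Col-0, so that the *sap18*-labelled libraries kept 0.681 and *sr45* kept 0.196 of the Col-0 mean. *AT1G29600*, for a CCCH zinc finger protein, was at 6.66 and 8.09 cRPKM in the *sap18*-labelled libraries, 2.60 and 2.75 in *sr45* and 13.3 and 16.1 in Col-0, and thus was lowered nearly to the 0.5 bound in the *sap18*-labelled libraries. *VIII-B*, which encodes a class VIII myosin, was weakly expressed, at 3.20 and 4.11 cRPKM in the *sap18*-labelled libraries, 1.38 and 1.76 in *sr45* and 6.57 and 7.72 in Col-0. These 4 genes are the ones below 0.25 of Col-0 in *sr45*.

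The next 4 lay between 0.303 and 0.310 of Col-0 in *sr45* and between 0.542 and 0.577 in the *sap18*-labelled libraries. *SCPL13*, for a serine carboxypeptidase-like protein, was the most abundant of them, with 66.2 and 77.1 cRPKM in the *sap18*-labelled libraries, 37.3 and 42.9 in *sr45* and 129 and 136 in Col-0. The ubiquitin ligase gene *RGLG4* had 30.3 and 34.9 cRPKM in the *sap18*-labelled libraries, 17.3 and 17.3 in *sr45* and 58 and 56.4 in Col-0. *TOM2B*, known for its part in tobamovirus multiplication, had 13.9 and 16.5 cRPKM in the *sap18*-labelled libraries, 8.05 and 8.82 in *sr45* and 25.8 and 29.6 in Col-0. In these 3 genes no library of one genotype reached the range of another, and the same holds for the fourth, the limit dextrinase gene *PU1*.

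Col-0 levels of the 126 genes ran from 5.35 to 659 cRPKM with a median of 20.1, and 22 genes were below 10, 56 between 10 and 30, 35 between 30 and 100, and 13 at 100 or above. The most abundant was *FBA5*, for a fructose-bisphosphate aldolase, at 496 and 552 cRPKM in the *sap18*-labelled libraries, 359 and 274 in *sr45* and 737 and 581 in Col-0. Its 2 Col-0 libraries differed by more than the gap between the lower of them and the *sap18*-labelled libraries, although the genotypes did not overlap. *LNK2* (*AT3G54500*), a clock-regulated gene whose protein is a coactivator of clock transcription factors, had 279 and 318 cRPKM in the *sap18*-labelled libraries, 239 and 276 in *sr45* and 578 and 561 in Col-0. Here the lines were close to each other and both far below Col-0.

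*AT5G35170*, for an adenylate kinase family protein, had 127 and 148 cRPKM in the *sap18*-labelled libraries, 86.6 and 89.9 in *sr45* and 192 and 178 in Col-0. *AT4G36850*, for a membrane protein with PQ-loop repeats, had 139 and 136 cRPKM in the *sap18*-labelled libraries, 65.2 and 76.7 in *sr45* and 185 and 171 in Col-0. *AT5G22920*, which encodes the RING zinc finger protein RZPF34, had 126 and 123 cRPKM in the *sap18*-labelled libraries, 62.5 and 69.5 in *sr45* and 152 and 162 in Col-0. All 3 kept more than 0.7 of the Col-0 mean in the *sap18*-labelled libraries and less than 0.5 in *sr45*, whereas *AT2G15960*, annotated as a stress-induced protein, was near 0.5 in both.

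**Figure D2:**
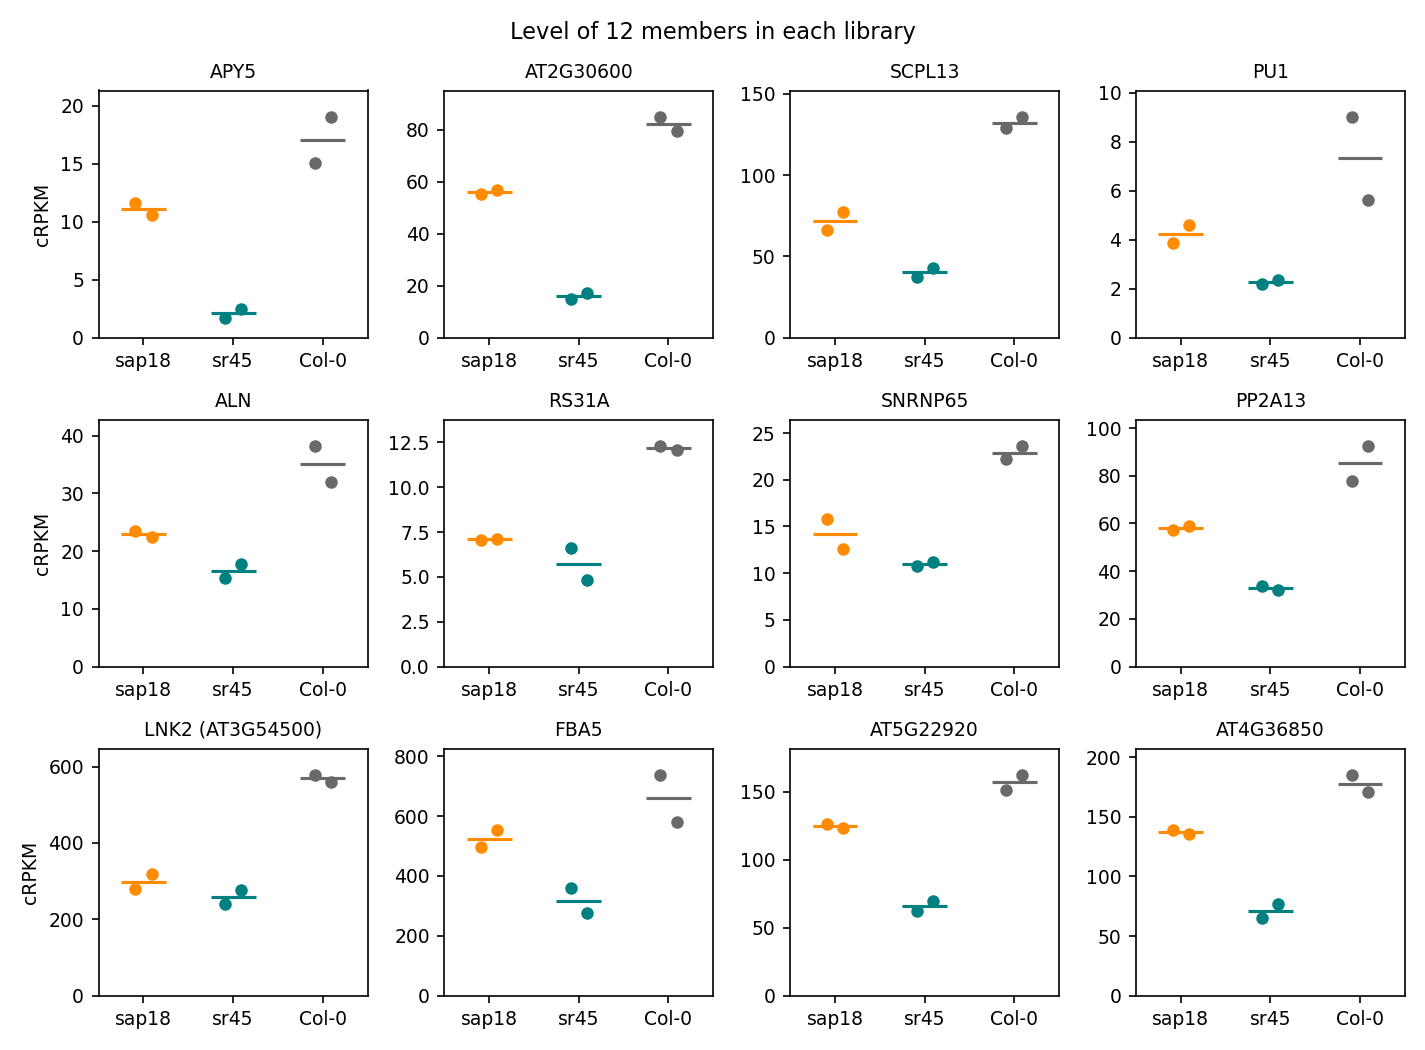
Level in cRPKM (y axis, from 0) of 12 of the partly lowered genes in the *sap18*-labelled libraries, in *sr45* and in Col-0, with 1 point per library and a bar at the mean of 2. In *APY5* and *AT2G30600* the *sap18*-labelled libraries lie nearer to Col-0 than to *sr45*, and in *LNK2* and *RS31A* nearer to *sr45*.

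Classes of genes were formed by an exact, case-sensitive match of set words in the annotated product, each gene going to the first class it matched, so that their sizes count word matches and miss genes annotated in other words. The words of RNA binding and splicing, the field of SR45 itself, matched 4 of the 126 and 9 of the 454. *RS31A*, for an SR splicing factor of the RS subfamily, was at 7.05 and 7.12 cRPKM in the *sap18*-labelled libraries, 6.60 and 4.83 in *sr45* and 12.3 and 12.1 in Col-0. *SNRNP65*, for a protein of the U11/U12 particle that recognises the rare U12-type introns, was at 15.8 and 12.6 cRPKM in the *sap18*-labelled libraries, 10.8 and 11.2 in *sr45* and 22.2 and 23.6 in Col-0. Both genes were ordered without overlap, although the higher *sr45* library of *RS31A* came close to the *sap18*-labelled libraries. Neither passed limma between the lines, with log2 differences of 0.28 (standard error 0.17) for *RS31A* and 0.33 (standard error 0.16) for *SNRNP65*.

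*SRD2*, for a subunit of the complex that activates small nuclear RNA transcription, was at 3.37 and 2.96 cRPKM in the *sap18*-labelled libraries, 2.64 and 2.47 in *sr45* and 5.17 and 6.14 in Col-0. The RNA recognition motif gene *AT3G09160* kept most in the *sap18*-labelled libraries, at 10.6 and 12.6 cRPKM, with 5.58 and 8.29 in *sr45* and 15.6 and 15 in Col-0. Of 25 SR and U11/U12 protein genes looked up, 3 were in the table, and *RS31A*, *SNRNP65* and *SR45* itself were these. A pair of further genes with a link to splicing in their annotation was missed by this match and picked out after their values were seen. *AT4G36980*, for a CLK4-associating serine/arginine-rich protein, stood at 54 and 66.3 cRPKM in the *sap18*-labelled libraries, 38.1 and 41.9 in *sr45* and 107 and 84.1 in Col-0. *AT2G16940*, for a CC1-like splicing factor, stood at 33.9 and 37.9 cRPKM in the *sap18*-labelled libraries, 33.6 and 32.7 in *sr45* and 69.4 and 64.8 in Col-0.

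Enzymes were the most numerous of the classes with a common word in their product. Among those of starch breakdown, *PU1*, whose limit dextrinase cuts the branch points of starch, was at 3.86 and 4.59 cRPKM in the *sap18*-labelled libraries, 2.19 and 2.36 in *sr45* and 9.01 and 5.64 in Col-0. The beta-amylase gene *BAM6* was at 4.46 and 3.13 cRPKM in the *sap18*-labelled libraries, 2.86 and 1.89 in *sr45* and 5.47 and 5.22 in Col-0. They are the 2 of 24 genes of starch breakdown in the table, and *PU1* is the one that passed limma as lower in the *sap18*-labelled libraries. The glycosyl hydrolase family 38 gene *AT5G13980* had 30.4 and 34.4 cRPKM in the *sap18*-labelled libraries, 21.1 and 20.4 in *sr45* and 43.1 and 45.3 in Col-0, and completes the 3 carbohydrate enzymes of that word class, which holds 21 listed genes. None of the 5 listed genes that are induced when sugar is low (*STR15*, *RFS6*, *DIN11*, *EXL1* and *BT2*) was among the 126. Their ratio in the *sap18*-labelled libraries ran from 0.811 for *DIN11* to 5.16 for *EXL1*, with *RFS6* next below at 1.18. In *sr45* all 5 were below 0.5, and 4 passed limma as lower. *EXL1* did not (limma adjusted p = 0.07), at a mean of 1.68 cRPKM in *sr45* against 3.48 in Col-0.

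The inositol phosphate kinase genes *ITPK2* and *ITPK3*, the 2 of 4 family genes in the table, both belonged to the set. *ITPK2* was at 4.13 and 4.35 cRPKM in the *sap18*-labelled libraries, 4.35 and 2.66 in *sr45* and 8.19 and 8.22 in Col-0, and *ITPK3* was at 8.14 and 10.3 cRPKM in the *sap18*-labelled libraries, 8.23 and 5.84 in *sr45* and 15.2 and 16.3 in Col-0. In both, 1 *sr45* library was within or above the range of the *sap18*-labelled libraries, so the lines were not separated, while Col-0 stood apart.

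*ALN*, for allantoinase of purine breakdown, had 23.4 and 22.5 cRPKM in the *sap18*-labelled libraries, 15.3 and 17.7 in *sr45* and 38.2 and 32 in Col-0, and is the 1 listed gene of 8 in that pathway. *LIP2P*, for an octanoyltransferase of lipoate synthesis, had 5.78 and 5.11 cRPKM in the *sap18*-labelled libraries, 2.77 and 4.56 in *sr45* and 8.01 and 8.47 in Col-0, the 1 listed gene of 5. *ACR4*, of the ACT domain repeat family, had 27.5 and 26.5 cRPKM in the *sap18*-labelled libraries, 19.3 and 22.5 in *sr45* and 50.7 and 51.6 in Col-0, the 1 listed gene of 12. Each of the 3 was ordered without overlap. By limma, *ALN* passed as higher in the *sap18*-labelled libraries than in *sr45*. *ACR4* and *LIP2P* did not, with log2 differences of 0.36 (standard error 0.15) and 0.49 (standard error 0.20).

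Of the 43 genes matched as other enzymes, after *APY5*, *VIII-B* and *SCPL13* the lowest in *sr45* were *AT3G57470*, for an insulinase-type peptidase, and *AT5G42250*, for a zinc-binding alcohol dehydrogenase. *AT3G57470* stood at 17.4 and 19.9 cRPKM in the *sap18*-labelled libraries, 9.99 and 12.6 in *sr45* and 40.3 and 31.1 in Col-0. For *AT5G42250* the values were 7.85 and 7.57 cRPKM in the *sap18*-labelled libraries, 5.05 and 4.30 in *sr45* and 13.6 and 15.7 in Col-0. The 43 ran from 0.511 to 0.795 of Col-0 in the *sap18*-labelled libraries and from 0.124 to 0.497 in *sr45*. Fully ordered were 40 of them, beside 116 of all 126 and 39.4% of the table. As the choice of genes favours this order, nothing about the class is read from it.

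The phloem protein 2-A family, of lectin-like proteins some of which carry an F-box, had 3 of 15 genes in the table, all among the 126. *PP2A13* was the highest, at 57.2 and 58.7 cRPKM in the *sap18*-labelled libraries, 33.9 and 32.3 in *sr45* and 77.9 and 92.5 in Col-0. *PP2A11* was at 21.5 and 23.4 cRPKM in the *sap18*-labelled libraries, 11.7 and 15.3 in *sr45* and 28.5 and 30.3 in Col-0, and *PP2A14* at 7.98 and 8.15 cRPKM in the *sap18*-labelled libraries, 6.04 and 6.77 in *sr45* and 13.8 and 13.2 in Col-0. The family thus spanned 0.598 to 0.765 of Col-0 in the *sap18*-labelled libraries and 0.388 to 0.475 in *sr45*, with no overlap in any of the 3. By limma, 2 of the 3 passed as higher in the *sap18*-labelled libraries than in *sr45*.

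The words of ubiquitin ligases and F-box proteins matched 8 of the 126 and 15 of the 454, without *RGLG4*, whose product is annotated as a copine, with a median ratio of 0.713 in the *sap18*-labelled libraries and 0.461 in *sr45*. Beside *AT2G30600* and *AT5G22920*, the lowest in *sr45* were *AT5G22700*, an F-box gene with leucine-rich repeats, the RING gene *AT2G02960* and the U-box gene *PUB37*. They had ratios of 0.562, 0.537 and 0.745 in the *sap18*-labelled libraries, against 0.426, 0.455 and 0.467 in *sr45*, so that *PUB37* kept more of its level in the *sap18*-labelled libraries at a similar *sr45* ratio.

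The words of protein kinases matched 6 of 12 listed, without *STY46* and *BSK8*, kinase genes that fell among the other enzymes. *AT3G46370*, for a leucine-rich repeat kinase, was lowest in *sr45*, at 4.14 and 4.98 cRPKM in the *sap18*-labelled libraries, 3.08 and 2.30 in *sr45* and 8.40 and 5.45 in Col-0. *AT2G31010*, *PERK15*, *AT1G74320* and the cysteine-rich receptor kinase gene *CRK18* followed, with ratios between 0.593 and 0.706 in the *sap18*-labelled libraries and between 0.422 and 0.474 in *sr45*. The lowest ratio of the 6 in the *sap18*-labelled libraries, 0.528, belonged to *RFK1*.

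The words of transport proteins matched 6 of 20 listed. *SULTR4;2*, for a transporter that releases sulfate from the vacuole, was at 7.44 and 8.41 cRPKM in the *sap18*-labelled libraries, 5.20 and 4.26 in *sr45* and 15.7 and 12.1 in Col-0. The amino acid transporter gene *AT3G56200* had 10.3 and 9.99 cRPKM in the *sap18*-labelled libraries, 6.41 and 5.69 in *sr45* and 13.5 and 17 in Col-0. *UMAMIT38*, *AT4G13800* and the cyclic nucleotide gated channel gene *CNGC5* had ratios of 0.593, 0.577 and 0.722 in the *sap18*-labelled libraries and 0.423, 0.432 and 0.475 in *sr45*. Of these 5, *AT4G13800* was the one in which the lines overlapped.

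The words of transcription factors matched 3 of 20 listed, all at modest levels. *BHLH128*, of the basic helix-loop-helix family, was at 16 and 16.4 cRPKM in the *sap18*-labelled libraries, 10.8 and 12.2 in *sr45* and 24.4 and 24.9 in Col-0. The homeodomain-like genes *AT2G40260* and *RL2* had ratios of 0.736 and 0.697 in the *sap18*-labelled libraries and 0.462 and 0.482 in *sr45*. Noncoding RNAs gave 3 of the 126, *AT3G05932*, *AT3G24518* and *AT1G26208*, with ratios of 0.579, 0.669 and 0.588 in the *sap18*-labelled libraries and 0.416, 0.446 and 0.480 in *sr45*. All 3 overlap another annotated gene. Of the 126, 42 overlap one, 38 of them on the opposite strand, and of the 450 listed genes with an annotation 132 overlap one. As the use of strand in the counting is not stated, reads of such partners cannot be told apart.

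The remaining 50 genes fell in no class. The lowest of them in *sr45* beyond those named above was *AT2G29170*, annotated as an NAD(P)-binding Rossmann-fold protein, with 14 and 13.1 cRPKM in the *sap18*-labelled libraries, 12.7 and 3.52 in *sr45* and 20.2 and 28.5 in Col-0. Its *sr45* libraries disagreed, the lower being far below the *sap18*-labelled libraries and the higher just under them. *AT4G30690*, for a translation initiation factor 3 protein, had 52.2 and 52 cRPKM in the *sap18*-labelled libraries, 29.2 and 40.2 in *sr45* and 93.3 and 109 in Col-0, with both lines well below Col-0.

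**Figure D3:**
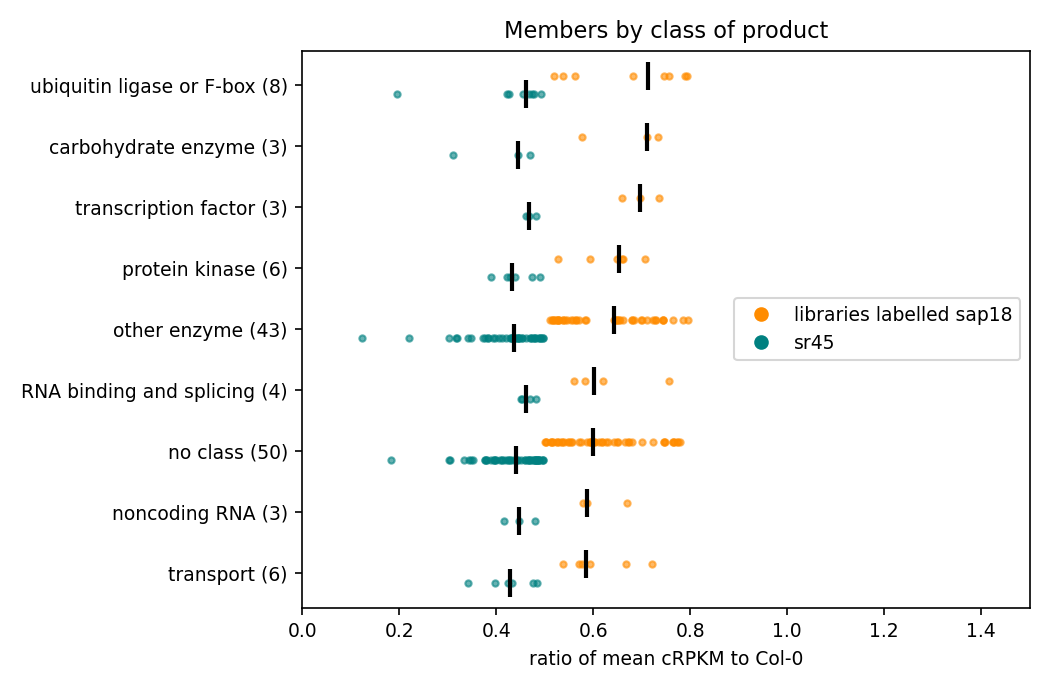
Ratio of mean cRPKM to Col-0 (x axis) of the 126 genes by class of words in the annotated product (y axis, number of genes in parentheses), with the *sap18*-labelled libraries in orange above *sr45* in teal, 1 point per gene and black ticks at the class medians. Class medians lie between 0.585 for transport and 0.713 for ubiquitin ligase or F-box in the *sap18*-labelled libraries, and between 0.428 and 0.467 in *sr45*.

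Properties that the choice did not use were read from RefSeq TAIR10.1, in which all 126 genes were found. The protein-coding genes among them, 123 in all, had a median of 8 exons in their longest transcript, against 3 for the 304 other listed protein-coding genes and 4 for the 27444 of the genome. Single-exon genes made up 4.88% of the 123 and 26.0% of the 304, and 38.2% and 15.1% had 10 exons or more. The genes halved in both lines were closer, with 5.77% of single-exon genes and 30.8% with 10 exons or more among 52 protein-coding genes. Those halved in *sr45* and kept in the *sap18*-labelled libraries had 16% and 28% among 50. Genes higher in *sr45*, which weigh on the 304, had 40.7% of single-exon genes. Within the table, the median was 6 exons for the genes halved in both lines, 4 for those halved in *sr45* and kept in the *sap18*-labelled libraries, and 2 for those higher in *sr45* than in Col-0. The longest chains were 39 exons in *AT4G38350*, for a Patched family protein, 29 in *AT5G13980* and 28 in *PU1*. The 6 single-exon genes were *AT5G40690*, *AT4G10910*, *AT1G48780*, *AT1G14200*, *ATSOFL2* and *AT2G15960*. The median transcript length was 1860 bases, against 1517 for the 304, 1583 for the genes halved in both lines and 1834.5 for those kept in the *sap18*-labelled libraries. Whether splicing of these transcripts differed between genotypes was not analysed here, and the part of gene length and expression level in the exon number was not tested.

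**Figure D4:**
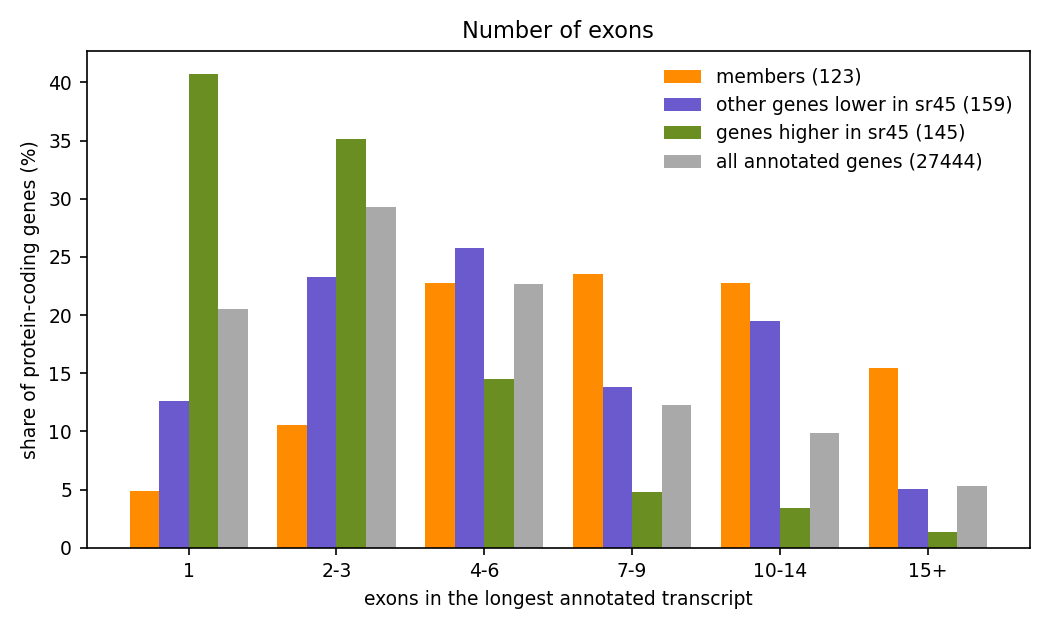
Share of protein-coding genes (y axis, %) by number of exons in the longest annotated transcript (x axis) for the 123 partly lowered genes, the 159 other listed genes lower in *sr45*, the 145 listed genes higher in *sr45* and all 27444 annotated genes. The partly lowered genes have the smallest share with 1 exon, 4.88%, and the largest with 15 or more, 15.4%.

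Along the genome, 34, 27, 18, 22 and 25 of the 126 lay on chromosomes 1 to 5, out of 120, 88, 74, 77 and 91 listed genes. Among the 126, 2 pairs lay within 20 kb of each other, and such pairs were not counted over all listed genes. *APY5* and *AT1G14200* are 13058 bp apart on chromosome 1, and *Fes1B*, for an Hsp70 nucleotide exchange factor, lies 7537 bp from *AT3G53830*, for an RCC1 family protein, on chromosome 3. *Fes1B* and *AT3G53830* had similar ratios in the *sap18*-labelled libraries, 0.767 and 0.746, and 0.377 and 0.488 in *sr45*.

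The 250 bases upstream of each gene start were searched on both strands for 8 short motifs. A pair of them, both bound by MYB-like factors of the circadian clock, departed from their share over all genes, in opposite directions. The evening element, AAAATATCT, was found upstream of 11 of the 126 genes (8.73%), of 11 of the 324 other listed genes with an annotation (3.40%), and of 2.36% of all protein-coding genes. The share was 3.33% among genes halved in both lines, 1.96% among those kept in the *sap18*-labelled libraries and 2.65% among those higher in *sr45*. With so few genes this is a description, and a match is no sign of binding. The CCA1-binding site, AAAAATCT, was less frequent, upstream of 2 of the 126 (1.59%), of 4.22% of the whole table and of 6.69% of all protein-coding genes. It was about as rare among genes kept in the *sap18*-labelled libraries (1.96% of 51). Among those halved in both lines it was at 6.67%, and among those higher in *sr45* at 5.30%. For the G-box CACGTG (7.14% against 6.49%), the I-box GATAAG (11.1% against 12.3%), TATCCA (15.1% against 13.6%), the telo-box AAACCCTA (3.17% against 4.49%) and the W-box TTGACC (9.52% against 12.2%) the shares were closer to those of all protein-coding genes. The GCC-box AGCCGCC was upstream of none of the 126 and of 0.587% of all. The median GC content of these windows was 31.6% in the 126 and 31.2% in all protein-coding genes. The 8 motifs were searched with results of these data known.

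Of the 11 genes with a match, 6 are shown. They are the most abundant one (*FBA5*), the one with a pair of matches (*AT2G15960*), the one with the match nearest to the gene start (*AT2G30600*), and 3 others. No stated rule sets these 3 (*MEE14*, *AT1G70820* and *LIP2P*) apart from the genes not shown. Sequences are from RefSeq TAIR10.1 and run 5′ to 3′ on the strand of the gene, and capitals mark the evening element or its reverse complement. All lie before the annotated start of their gene, the *FBA5* stretch from 99 to 61 bases and the *AT2G30600* stretch from 30 to 1 bases before it.
FBA5, chr4:13390655-13390693, plus strand: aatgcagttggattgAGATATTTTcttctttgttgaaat
AT2G15960, chr2:6946973-6947076, plus strand: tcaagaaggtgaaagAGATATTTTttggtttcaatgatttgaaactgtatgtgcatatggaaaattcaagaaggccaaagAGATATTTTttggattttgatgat
AT2G30600, chr2:13036784-13036813, plus strand: tttctcctgacacaaAAAATATCTcatcat
MEE14, chr2:6922204-6922242, minus strand: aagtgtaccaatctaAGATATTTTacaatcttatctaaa
AT1G70820, chr1:26705321-26705359, plus strand: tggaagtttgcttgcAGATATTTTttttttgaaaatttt
LIP2P, chr4:15114149-15114187, plus strand: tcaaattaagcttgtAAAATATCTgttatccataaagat
*AT2G15960* carries its pair in the same orientation, and *MEE14* is known from a maternal effect on embryo development. The 11 genes with the motif had a median ratio of 0.661 in the *sap18*-labelled libraries and 0.432 in *sr45*, beside 0.615 and 0.444 for all 126. Their ratios ran from 0.502 to 0.795 in the *sap18*-labelled libraries and from 0.196 to 0.484 in *sr45*, and thus covered nearly the whole band. *MEE14* was at 49.6 and 50.5 cRPKM in the *sap18*-labelled libraries, 25.2 and 28.1 in *sr45* and 59.9 and 69.6 in Col-0. *AT1G70820*, for a putative phosphoglucomutase, was at 23.7 and 21.4 cRPKM in the *sap18*-labelled libraries, 11.7 and 11.4 in *sr45* and 34.7 and 27.3 in Col-0. Among 24 clock genes looked up, *LNK2* and *RVE2* were in the table. *LNK2* had no evening element in this window, and *RVE2*, for a MYB-like factor of the clock family, was not among the 126, with ratios of 1.29 in the *sap18*-labelled libraries and 2.81 in *sr45*. The time of day of sampling is not given in the sources used here.

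**Figure D5:**
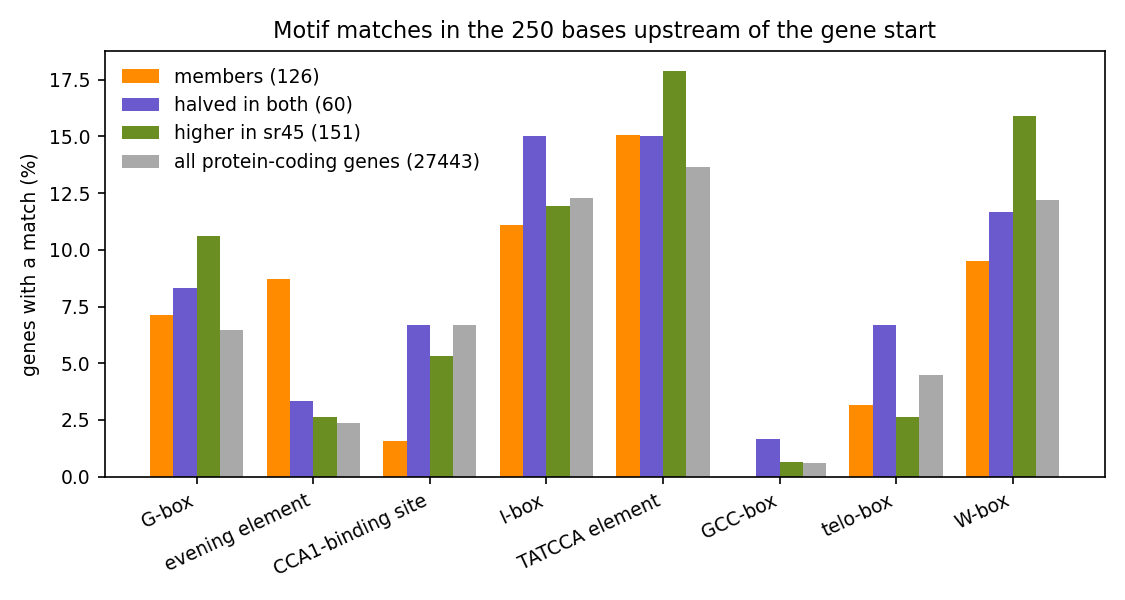
Share of genes (y axis, %) with at least 1 match, on either strand, to each of 8 motifs (x axis) in the 250 bases upstream of the gene start, for the 126 partly lowered genes, the 60 halved in both lines, the 151 higher in *sr45* and 27443 protein-coding genes. Of these 4 sets the 126 have the highest share with the evening element, 8.73%, and the lowest with the CCA1-binding site, 1.59%. The 51 genes kept in the *sap18*-labelled libraries are not drawn, and 1.96% of them have the CCA1-binding site.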

How the data were processed

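The authors quantified reads with vast-tools 2.5 on its araTha10 library (extended Ensembl Plants 31, build TAIR10) and deposited cRPKM, that is RPKM over mappable positions, quantile-normalized across libraries. Their notes state a stranded poly(A) kit. The deposited table holds 454 genes from their lists of changed genes and no reads, so the depth behind a value is unknown, and the error is the spread between 2 libraries. No source states separate plantings, so p-values measure a spread that may be technical. Columns without a sample numbered 0.

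Ratios are of mean cRPKM. limma 3.58.1 (R 4.3.3) was fitted to log2(cRPKM + 1) of all 6 libraries, with Benjamini-Hochberg adjustment over 454 genes and a threshold of 0.05. The pseudocount understates changes of low genes.

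The genes, gene lists and motifs were chosen with earlier results of these data known. Named are the 8 lowest in *sr45*, the 6 highest in Col-0, those beside each bound, every one in a gene list, and the 5 lowest of each class of product words. Symbols, exons, sequences and positions come from RefSeq TAIR10.1, in which 450 of 454 loci matched. Python 3.11.15, pandas 2.3.3 and matplotlib 3.10.9 were used. Alternatives covered the ratio, the pseudocount, a filter on low values, the scaling, the variance model, a replicate block and each library left out.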

Additional observations from a re-analysis of the deposited data

Results flagged for a closer look

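The level of *SAP18* differed between the lines, with a log2 difference of 3.43 (*sap18*-labelled libraries minus *sr45*, SE 0.16, limma adjusted p = 2.2e-05), both *sap18*-labelled libraries standing above both *sr45* libraries. *SR45* also differed between them, by 1.89 on the same scale (SE 0.16, limma adjusted p = 0.00013), again with no overlap between the pairs of libraries.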

How the results depend on the processing

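The number of genes meeting the rule was 125 with geometric means, 95 with a pseudocount of 1 cRPKM in both means, 100 with both Col-0 libraries above 10 cRPKM, 99 to 128 with 1 library left out, and 18 with libraries scaled to the same median. By limma, the count of the 126 lower in *sr45* was 124 to 126 with 1 library left out and 85 among genes with a mean above 10 cRPKM, where fewer genes were tested. The count lower in the *sap18*-labelled libraries, 97, was 56 to 109 with 1 library left out and 60 after scaling. The count higher in the *sap18*-labelled libraries than in *sr45*, 65, was 17 to 64 with 1 library left out and 11 after scaling. The median log2 change in *sr45*, -1.08, was -1.18 with a pseudocount of 0.1, -0.87 with 5, -0.53 after scaling and -1.14 to -1.08 with 1 library left out. In the *sap18*-labelled libraries the median, -0.66, was -0.71 with a pseudocount of 0.1, -0.50 with 5, -0.46 after scaling and -0.67 to -0.62 with 1 library left out. The median difference between the lines, 0.52, was 0.36 with a pseudocount of 5, 0.16 after scaling and 0.47 to 0.53 with 1 library left out. These medians kept their sign, but after scaling the fitted difference between the lines turned below 0 for 37 of the 126 genes. Over all 454 genes, 161 passed after scaling as lower in the *sap18*-labelled libraries, and 89 as higher there than in *sr45*. The cause of the change with scaling was not tested. Counts over the whole table are not given with 1 library left out or among genes with a mean above 10 cRPKM. Whether the counts of the 126 moved there apart from the whole table was therefore not tested, and nothing is read from them. A genotype with 1 library left out also rests on 1 library.

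With the replicate number as a block, 126 of the 126 genes passed as lower in *sr45* and 97 as lower in the *sap18*-labelled libraries. As higher in the *sap18*-labelled libraries than in *sr45*, 63 passed. The share of the whole table with this block is not given, so nothing is read from these counts. The labels do not say that a number pairs samples, and deviations of same-numbered libraries correlated, across genes, at -0.03 between the *sap18*-labelled libraries and Col-0, -0.11 between *sr45* and Col-0, and 0.08 between the lines.

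With 2 libraries a genotype, known only as normalized values of genes selected for change, levels near a bound cannot be placed on one side of it.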
